A study of Mus musculus with 6 samples.

Results

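The 37 genes described here are markers of cell division, 13 of DNA replication (the S-phase list) and 24 of late interphase and mitosis (the mitotic list), chosen by symbol out of the 20394 genes of the count table. All 37 had a row. They were followed through 32953 leukocytes from the joints of mice with antigen-induced arthritis. The animals, male C57BL/6 mice bought at 8 weeks of age and housed for at least 2 weeks before use, had all been sensitized to methylated bovine serum albumin (mBSA, 10 µg in complete Freund's adjuvant) and challenged with 100 µg of it in the knee on day 21. From then on 2 samples came from mice given the vehicle PBS and 4 from mice given 300 µg of the peptide PEPITEM. Cells bearing the leukocyte protein CD45 were sorted from digested joint tissue at the peak of inflammation, so every group carries the same immunization and challenge and none is an untreated joint. The barcodes carry library numbers from 1 to 6, which no source used here links to the samples, so PBS and PEPITEM could not be compared and the libraries are given by number.

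A cell divides by copying its DNA in S phase and separating the copies in mitosis. The MCM helicase is loaded on DNA by CDC6 and CDT1, nucleotides for the copy are made by ribonucleotide reductase and thymidylate synthase, and the sliding clamp PCNA holds the polymerase in place. The mitotic genes encode the CDK1 kinase and its cyclins, the kinases and motor proteins of the spindle, and the kinetochore that joins chromosome and spindle. Others encode partners of the ubiquitin ligase that ends mitosis. Mature neutrophils have left the cycle, while the precursors of granulocytes, monocytes and B cells divide, usually in bone marrow.

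The promoters are shown first because the motifs searched were spread unequally over the lists. Of the 37 genes, 31 matched a RefSeq window of GRCm38.p6 from 250 bases before to 50 after the start of transcription. CCAAT (bound by NF-Y), TTTGAA (the CHR element of late cell cycle genes) and the E2F forms TTTCGCGC, TTTGGCGC and GCGGGAA were searched on both strands. Some genes have more than 1 window (32851 windows for 27025 genes), and a gene counted when any of its windows held the motif. TTTGAA stood in 14 of the 19 mitotic genes (73.7%), in 1 of the 12 S-phase genes (8.33%, Mcm2), and in 20.2% of all 27025 genes. An E2F form stood in 7 of the 12 S-phase genes (58.3%), in 1 of the 19 mitotic genes (5.26%, Cdk1), and in 6.10% of all. CCAAT stood in 17 of 19 mitotic genes, in 8 of 12 S-phase genes and in 41.1% of all. CCAAT and TTTGAA stood together in a window of 14 mitotic genes, of 1 S-phase gene and of 7.97% of all. Matches to different motifs overlapped in Cdca8 and Mcm7, and matches to the same motif in Mcm5, Mcm6 and Ube2c. A match is a run of letters, not a measured binding site.

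The promoters of 3 mitotic and of 2 S-phase genes carry these letters in the 160 bases before the start, shown 5′ to 3′ on the gene's strand with all matches to the motifs above, on either strand, in capitals. Cdk1, the kinase that starts mitosis, lies at chr10:69352913-69353072 on the minus strand. Cdc20, which activates the ligase that ends mitosis, lies at chr4:118437344-118437503 on the minus strand. Hmgb2, a chromatin protein, lies at chr8:57511683-57511842 on the plus strand. Mcm5 and Mcm6, subunits of the replicative helicase, lie at chr8:75109349-75109508 on the plus strand and at chr1:128359706-128359865 on the minus strand.
Cdk1: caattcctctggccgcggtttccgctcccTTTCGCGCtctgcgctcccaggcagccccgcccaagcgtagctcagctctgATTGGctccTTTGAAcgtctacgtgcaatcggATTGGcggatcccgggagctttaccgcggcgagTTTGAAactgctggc
Cdc20: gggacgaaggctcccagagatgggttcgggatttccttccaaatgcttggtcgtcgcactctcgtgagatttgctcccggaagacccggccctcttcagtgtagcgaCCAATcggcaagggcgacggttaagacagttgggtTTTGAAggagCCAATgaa
Hmgb2: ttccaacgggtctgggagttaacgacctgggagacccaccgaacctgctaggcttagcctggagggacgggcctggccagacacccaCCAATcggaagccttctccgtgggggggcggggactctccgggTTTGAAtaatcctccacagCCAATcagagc
Mcm5: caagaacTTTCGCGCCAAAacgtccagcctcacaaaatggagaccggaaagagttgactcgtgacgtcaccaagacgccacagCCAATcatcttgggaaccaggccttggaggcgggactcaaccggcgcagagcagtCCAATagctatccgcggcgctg
Mcm6: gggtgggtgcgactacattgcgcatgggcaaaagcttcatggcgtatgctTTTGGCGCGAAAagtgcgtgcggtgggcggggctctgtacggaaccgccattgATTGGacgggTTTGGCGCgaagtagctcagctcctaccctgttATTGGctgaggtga

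Each cell was placed by lineage marker genes, none of which is a member, into 1 of 27 gates, of which 22 held at least 50 cells. Gates covered 30476 cells (92.5%). A gate is a range of a marker score and not a cell type, and 1809 gated cells (5.94%) led the next lineage by less than 1.5 times. Libraries held 2919 to 9345 cells and 47273569 to 123367661 unique molecular identifiers (UMIs, tags of single RNA molecules), and 138 barcodes occurred in 2 libraries each. Levels are UMIs per 1000000 UMIs of the gate (CPM) with an exact 95% Poisson interval in brackets, which covers counting error only. Counts of 3′ ends are not corrected for capture, so levels are compared between gates and not between genes. Reads of a gene and of a near-identical copy cannot be told apart for Ccnb1, Ccnb2, Pcna and Tyms, which have annotated pseudogenes.

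The 37 genes made up 0.309% of all UMIs. Summed over the cells of a gate, the mitotic list was highest in the gate of pre-B cells with Rag, at 6751 (6716 to 6786) CPM, and the lowest, median and highest library had 5634, 6897 and 7595 CPM. The gate of B lineage cells with the surrogate light chain, an earlier stage, had 4976 (4916 to 5036) CPM, the secondary-granule neutrophil gate 4181 (4168 to 4193) CPM, the classical monocyte gate 3427 (3415 to 3439) CPM and the promyelocyte-type gate 3345 (3320.1 to 3369) CPM. The 61 cells of the erythroid gate had 4468 (4376 to 4562) CPM. These levels pool the UMIs of a gate, so deep cells weigh more, and the order depends on this weighting. Averaged per cell, the erythroid gate was highest with 5695 CPM and pre-B cells had 3774 CPM. Without Hmgb2 these averages were 3677 and 1909 CPM. NK cells had 2590 (2533 to 2648) CPM and the stem and progenitor gate 1997 (1960 to 2036) CPM. Their libraries overlapped, from 1545 to 3188 CPM in 2 libraries of NK cells and from 1403 to 3150 CPM in 3 of stem and progenitor cells. Without Hmgb2 the list was at 1166 (1128 to 1205) CPM in NK cells and 1128 (1099 to 1156) CPM in the stem and progenitor gate. T cells had 1880 (1854 to 1906) CPM and type 1 dendritic cells 1766 (1727 to 1806) CPM. Lower levels were found in Ms4a1 B cells, with 1179 (1159.7 to 1198) CPM, in macrophages, with 352 (348 to 357) CPM, and in resident macrophages, with 256 (243 to 270.0) CPM.

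The S-phase list had another order. It was highest in the erythroid gate at 1751 (1693 to 1809.7) CPM and in the promyelocyte-type gate at 1632 (1615 to 1649.6) CPM, followed by B lineage cells with the surrogate light chain at 1378 (1347 to 1410.2) CPM and pre-B cells at 1135 (1121 to 1149.5) CPM. Averaged per cell, pre-B cells had 631 CPM, less than the 717 CPM of the stem and progenitor gate. Secondary-granule neutrophils had 543 (538 to 547) CPM in pooled UMIs, with 455, 523 and 623 CPM in the lowest, median and highest library. Late neutrophils were the lowest gate at 44.4 (42.6 to 46.3) CPM, with 27.3, 47.5 and 86.5 CPM over the libraries. Of the 13 S-phase genes, 6 peaked in the erythroid gate, 5 in the promyelocyte-type gate and 2 in the B lineage gate with the surrogate light chain. Of the 24 mitotic genes, 20 peaked in pre-B cells and 3 in the erythroid gate, again by pooled UMIs. The last, Ccnb1, peaked in the B lineage gate with the surrogate light chain. Some of these peaks were near ties. Mcm4 had 96.0 CPM in the erythroid and 94.6 CPM in the promyelocyte-type gate. Kif20a had 18.59 CPM in pre-B cells and 18.50 CPM in the erythroid gate. The erythroid gate held 61 cells in all, too few in any library for a library range. How many of all genes peak in each of these gates was not counted.

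**Figure D1:**
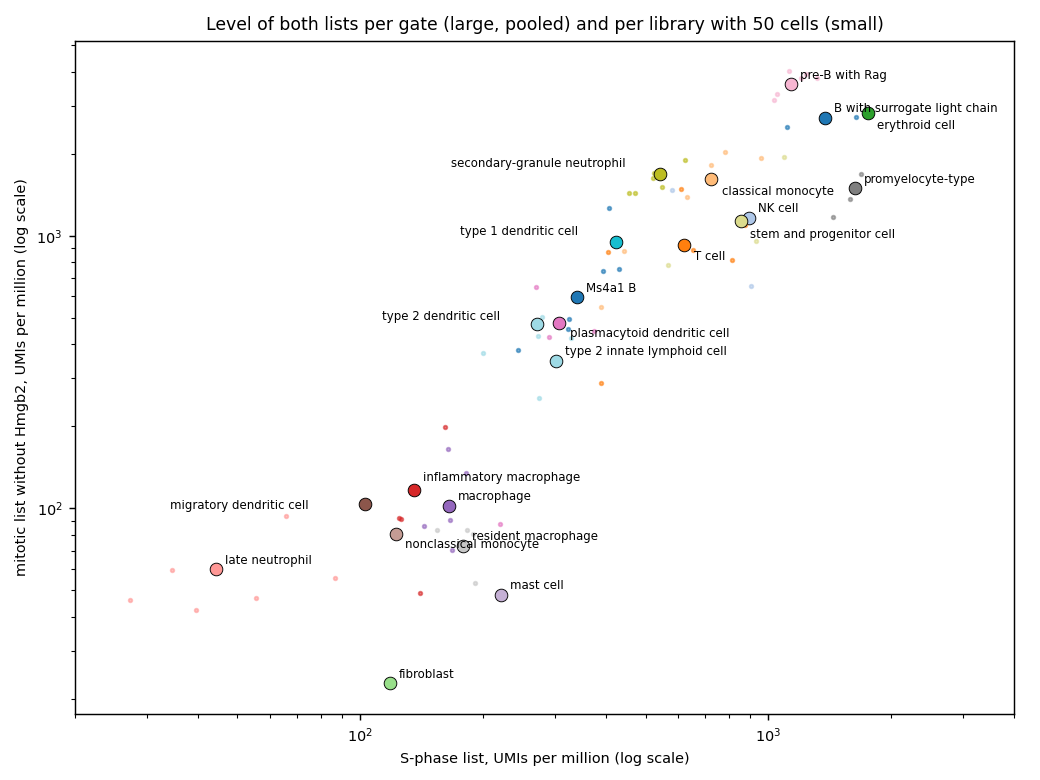
S-phase list (x axis) against the mitotic list without Hmgb2 (y axis), both in CPM on log scales, for 22 gates (large points, pooled cells) and for each library with at least 50 cells of the gate (small points of the same color). Pre-B cells sit at the top with 3603 CPM, promyelocyte-type cells to the right and below them, and late neutrophils at the left with 44.4 CPM on the x axis.

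Hmgb2 supplied 56.3% of all mitotic UMIs and was present outside the dividing gates. In late neutrophils it had 889 CPM and made up 93.7% of the mitotic UMIs, so that the list without it was at 59.7 (57.6 to 61.9) CPM. The same list without Hmgb2 was at 102 (99.8 to 105) CPM in macrophages, 1686 (1678 to 1694) CPM in secondary-granule neutrophils and 3603 (3578 to 3629) CPM in pre-B cells. UMIs of Hmgb2 were found in 87.7% of all cells.

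**Figure D2:**
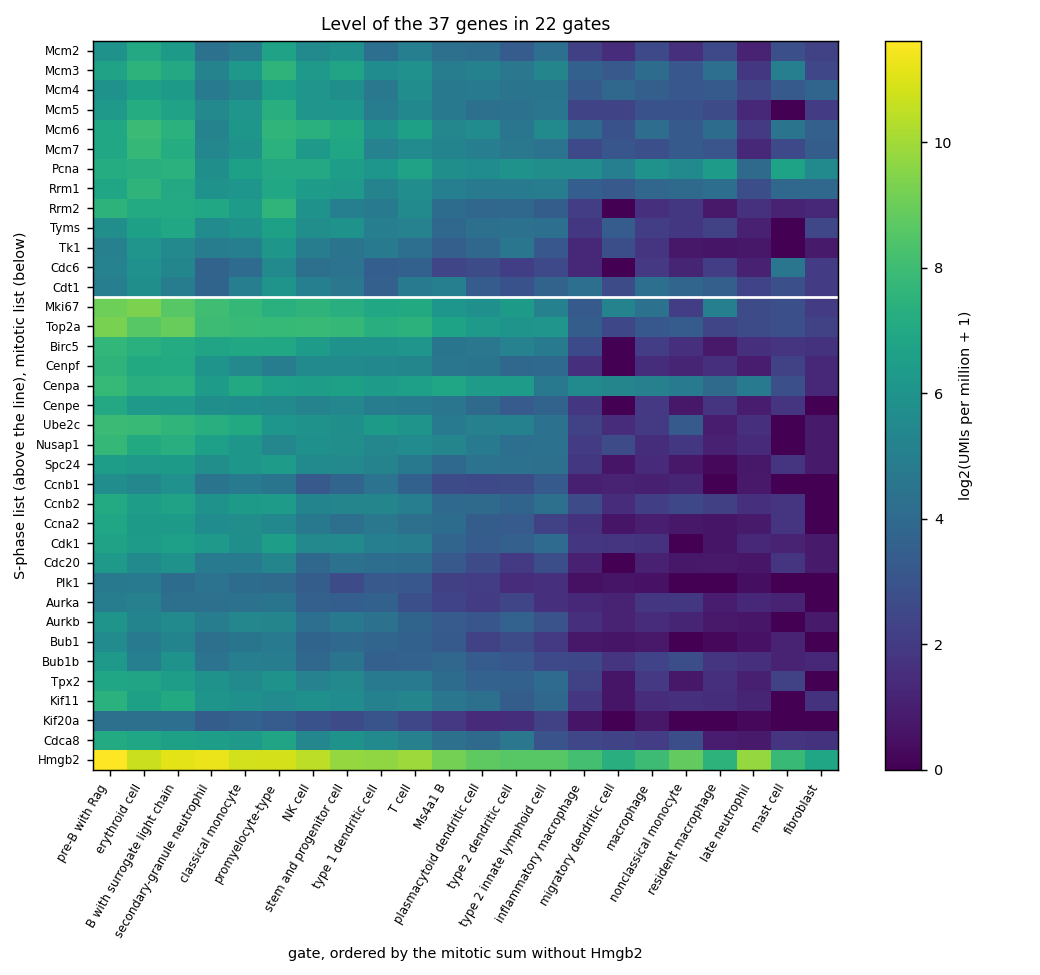
Level of each of the 37 genes (rows, S-phase list above the white line) in 22 gates (columns, ordered by the mitotic sum without Hmgb2), as log2(CPM + 1). Most rows are brighter in the columns left of inflammatory macrophages than from there on, whereas Hmgb2, Cenpa and Pcna keep a level further right, for instance 26.7, 889 and 15.1 CPM in late neutrophils for Cenpa, Hmgb2 and Pcna.

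For the share of cells with cell cycle genes, a cell was called positive when at least 3 genes of a list had a UMI after each cell had been thinned to 3000 UMIs, which left out 1516 shallower cells. Of 31437 cells, 6081 were positive on either list, a share of 19.3% (18.9% to 19.8%) with a 95% Wilson interval, and 35.7% were positive without thinning. Late neutrophils, with a median of 5352 UMIs per cell, gave the background of 0.732% (0.549% to 0.975%), or 3.99% unthinned. The share was 90.1% (87.4% to 92.3%) in promyelocyte-type cells (77.3% to 92.8% in 3 libraries, unthinned 99.8%, median 36417 UMIs), 37.6% (36.2% to 39.0%) in classical monocytes (unthinned 64.8%, median 18064 UMIs), 33.7% (32.4% to 35.03%) in secondary-granule neutrophils (unthinned 43.2%, median 17086 UMIs) and 26.9% (25.3% to 28.6%) in pre-B cells (unthinned 32.3%, median 5531 UMIs). It was 77.6% (65.3% to 86.4%) among 58 erythroid cells, 38.5% (32.8% to 44.5%) in the stem and progenitor gate and 33.8% (29.7% to 38.2%) in B lineage cells with the surrogate light chain.

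Of the lymphocytes and dendritic cells, NK cells had 23.5% (18.9% to 28.8%), T cells 18.01% (15.7% to 20.6%), type 1 dendritic cells 21.7% (16.2% to 28.4%), type 2 dendritic cells 13.7% (10.7% to 17.3%), plasmacytoid dendritic cells 9.84% (7.62% to 12.6%) and Ms4a1 B cells 7.72% (6.61% to 9.01%). Unthinned, the shares were 45.5%, 48.3%, 61.2%, 56.7%, 31.9% and 17.5% in the same order, the first 4 of them above the unthinned shares of secondary-granule neutrophils and pre-B cells, so the order of these gates changed with thinning. Of 955 T cells, 172 were positive, and that share went from 8.17% with 5 genes needed to 41.3% with 2, and from 9.68% at 1500 to 34.4% at 6000 UMIs. Macrophages had 2.34% (1.87% to 2.93%), inflammatory macrophages 2.84% (1.73% to 4.63%) and resident macrophages 2.88% (1.62% to 5.08%), 3 intervals that overlap. Among 96 migratory dendritic cells 0 were positive, for which the Wilson interval reaches 3.85% and the rule of 3 counts 3.12%. Unthinned, macrophages had 36.5%, at a median of 16155 UMIs.

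Positive cells had a median of 24614 UMIs before thinning and negative cells 10018. The authors removed cells above an upper number of genes, and the fullest cell left had 6998. Cells with at least 6500 genes made up 3.78% of positive and 0.532% of negative cells, and 15.5% of the promyelocyte-type gate. The part of that limit in the shares was not tested. Of all positive cells, granulocyte gates held 36.7%, mononuclear phagocyte gates 31.4%, B lineage gates 17.0%, T cells 2.83% and cells without a gate 5.43%.

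**Figure D3:**
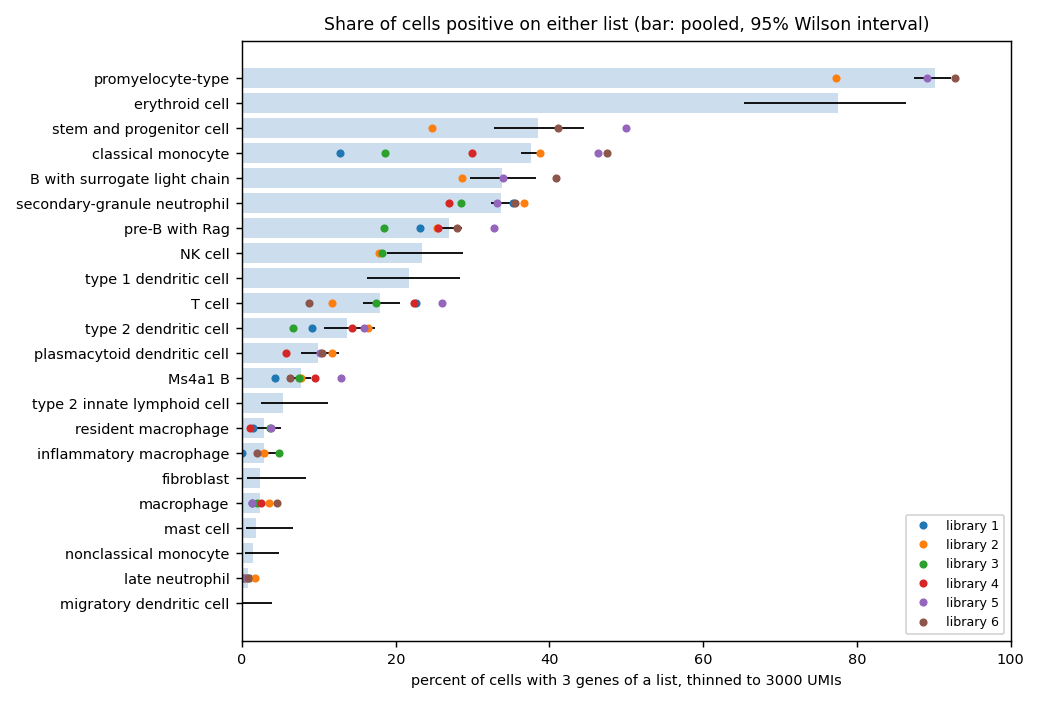
Percent of cells with at least 3 genes of a list after thinning to 3000 UMIs, per gate (bars, pooled cells, with 95% Wilson intervals) and per library with at least 50 such cells (points). Promyelocyte-type cells stand at 90.1%, classical monocyte libraries spread from 12.7% to 47.5%, and late neutrophils are at 0.732%.

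The number of mitotic genes per cell had a low and a high mode in secondary-granule neutrophils, classical monocytes and pre-B cells. With all UMIs kept, 70.7% of cells had 0 to 2 of the 24 mitotic genes and 11.1% had 15 or more, while 1961 cells had 6 to 14. All 24 were detected in 431 cells, and all 13 S-phase genes in 1019. Among secondary-granule neutrophils, 57.6% had 0 to 2 and 25.3% had 15 or more. Among pre-B cells the shares were 70.4% and 17.3%. Promyelocyte-type cells, the deepest of these gates, had a median of 15 genes, and 1.58% of them had 0 to 2. Of 7036 late neutrophils 5 had 15 or more, and of 3311 macrophages 14 did.

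**Figure D4:**
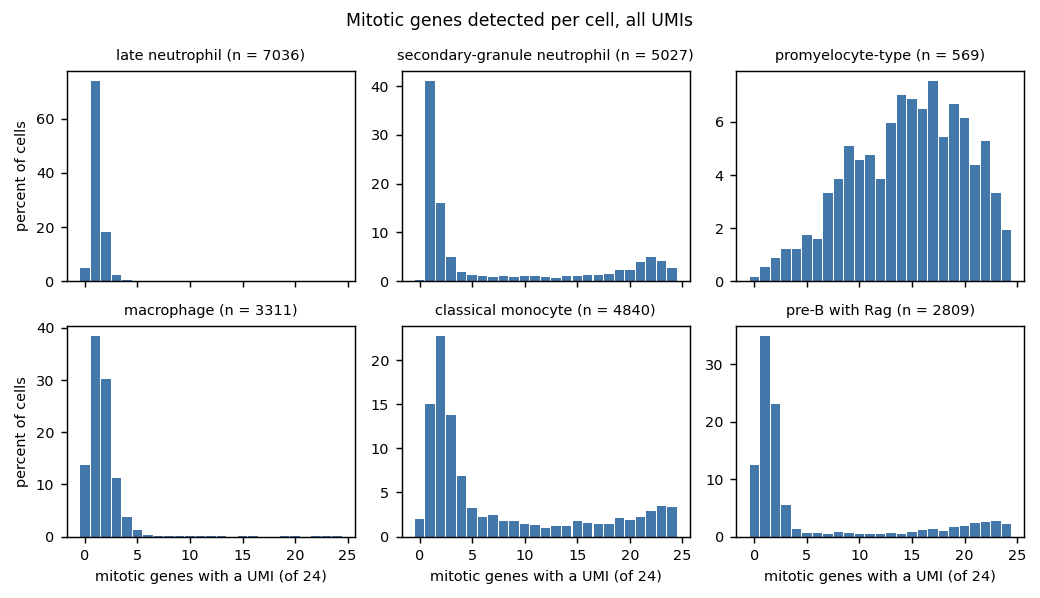
Number of the 24 mitotic genes with a UMI in a cell (x axis) against the percent of cells (y axis, own scale in each panel) in 6 gates, all UMIs kept. Secondary-granule neutrophils, classical monocytes and pre-B cells show a peak at 1 or 2 genes and a second rise near 20 and above, promyelocyte-type cells a broad hump around 15, and late neutrophils and macrophages the low peak alone.

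Each list was then measured in cells called by the other list. Cells positive on the S-phase list had 5990.1 CPM of the mitotic list against 1772 CPM in the rest, and cells positive on the mitotic list had 1360.0 CPM of the S-phase list against 189 CPM. Of positive cells in all gates, 45.3% carried both lists, 43.3% the mitotic list alone and 11.4% the S-phase list alone. S-phase list alone made up 4.00% of positive secondary-granule neutrophils, 5.50% of pre-B cells, 16.6% of promyelocyte-type cells and 32.0% of T cells. In macrophages it was 57.3% of 75 positive cells. Unthinned, 53.6% of positive cells carried both lists, 28.3% the mitotic list alone and 18.04% the S-phase list alone. In positive secondary-granule neutrophils 39.9% carried both lists thinned and 72.5% unthinned. The call needs 3 genes out of 24 or out of 13, and Hmgb2, found in 87.7% of cells, counts toward the mitotic list. The split therefore depends on the call and is not a make-up of cell cycle phases.

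By the mitotic call, 3 of the 13 S-phase genes, Rrm2, Tyms and Tk1, differed more than 10-fold, and the median was 8.15-fold. Rrm2, the regulated subunit of ribonucleotide reductase, had 219.8 against 6.14 CPM, a 35.8-fold difference between mitotic-positive and negative cells. Tyms, thymidylate synthase, differed 18.5-fold and Tk1, thymidine kinase, 18.04-fold. Rrm1, the other subunit of the reductase, differed 9.67-fold. The 6 MCM subunits differed 4.51- to 8.22-fold, the loader Cdc6 8.74-fold, Pcna 3.28-fold and Cdt1, the licensing factor that is degraded once S phase begins, 2.98-fold. Among mitotic genes measured by the S-phase call, Top2a, the topoisomerase that untangles sister chromosomes, had 548 against 82.5 CPM, a 6.64-fold difference. Spc24, a kinetochore subunit, differed 6.15-fold, and the kinases Bub1 and Aurkb 5.87- and 5.90-fold. Of the 24 mitotic genes 8 differed more than 5-fold, and the median was 4.40-fold. The 5 smallest differences were 2.04-fold for the ubiquitin-conjugating enzyme Ube2c, 2.43-fold for Cdc20, 2.70-fold for cyclin B1, 2.59-fold for Cenpf and 1.601-fold for Cenpa. Cenpa is the histone of the centromere. Cells are not replicates, and these differences carry no test. The share of all genes that differ this much was not counted. Cells of all gates were pooled, and the part of the make-up of gates in these folds was not tested. By the mitotic call the S-phase sum differed 7.19-fold over all cells. Within the gates measured it differed from 1.30-fold in promyelocyte-type to 11.2-fold in pre-B cells.

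In promyelocyte-type cells the helicase genes had like levels on both sides of the call. Mcm2 had 99.8 against 106 CPM in mitotic-positive and negative cells, Mcm3 183 against 207 CPM and Mcm6 195 against 193 CPM. In secondary-granule neutrophils the same genes had 33.7 against 5.58 CPM, 63.4 against 10.6 CPM and 63.7 against 10.1 CPM. Rrm2 still differed in promyelocyte-type cells, with 230.2 against 73.8 CPM, as did Tk1, with 84.1 against 27.7 CPM. Mitotic-positive cells were 426 of 567 in the promyelocyte-type gate and 1610 of 4976 in the secondary-granule gate. The negative cells of the former are therefore few and, at a median of 33573 UMIs, deep. Unthinned, 560 of 569 promyelocyte-type cells (98.4%) were mitotic-positive, beside 42.4% of secondary-granule neutrophils. Most negative promyelocyte-type cells were thus negative only after thinning, and their helicase levels cannot be read as those of cells without mitotic genes.

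Granulocyte stages were compared across all genes with at least 50 UMIs in both stages together. A gene was called higher or lower when its pooled level differed at least 2-fold and every library with 50 cells of both stages went the same way. From late to secondary-granule neutrophils, 36 of 37 members were higher, against 15.9% of 12523 genes called higher and 16.2% called lower. The median log2 fold was 3.75 for S-phase and 5.62 for mitotic genes, beside 0.07 over all genes tested. Mki67, the proliferation antigen, had 267 against 5.48 CPM, and the library ranges of 234 to 309 and 2.60 to 11.1 CPM did not overlap. Cdca8, a subunit of the chromosomal passenger complex, differed 114-fold, its partners Birc5 and Aurkb 53.2- and 44.6-fold. Cdt1 differed 3.11-fold but was higher in 5 of 6 libraries only, and the smallest calls were Hmgb2 at 2.81-fold and Cenpa at 3.09-fold.

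From secondary-granule neutrophils back to promyelocyte-type cells, the lists parted. Of 13 S-phase genes 12 were higher (92.3%), where 43.0% of 12457 genes were, and of 24 mitotic genes 0 were higher and 3 lower (12.50%), where 11.6% of all genes were lower. The median log2 fold was 1.89 for S-phase and 0.02 for mitotic genes. All genes tested had a median of 0.79, so S-phase genes lay above and mitotic genes below the shift of the whole table. Mcm6 had 194 against 36.0 CPM (5.398-fold), Mcm2 differed 5.27-fold and Cdt1 5.04-fold. Rrm2, at 1.55-fold, was the S-phase gene that did not reach 2-fold. The 3 lower genes were Cenpf with 29.8 against 63.2 CPM, Ube2c with 67.0 against 153 CPM, and Nusap1, a spindle protein, with 41.1 against 94.1 CPM. The ratio of S-phase to mitotic UMIs was 0.488 in promyelocyte-type cells, from 0.472 to 0.515 in 3 libraries, and 0.130 in secondary-granule neutrophils, from 0.123 to 0.144 in 6, and the ranges did not overlap.

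Within the secondary-granule gate, marker genes differed between positive and negative cells in both directions. Fcnb, ficolin B, had 988 against 160.2 CPM in positive and negative cells, Elane, neutrophil elastase, 659 against 12.6 CPM, and Cebpe, the transcription factor of secondary granules, 324 against 147 CPM, each higher in 5 of 5 libraries with 50 cells of both kinds. Ltf, lactoferrin, had 7087 against 10843 CPM, Lcn2, lipocalin 2, 11262 against 14342 CPM and the chemokine receptor Cxcr2 71.4 against 167 CPM, lower in 5 of 5. Camp, cathelicidin, had 41126 against 29630.0 CPM and Ngp 35590.0 against 34501 CPM. Camp, Ltf, Ngp, Fcnb, Lcn2 and Cebpe are the markers that placed the cells in the gate.

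In the B lineage, 35 of 37 members were higher in cells with the surrogate light chain, the stand-in light chain of early B cell development, than in Ms4a1 B cells (94.6%, where 15.9% of 10671 genes were higher and 10.5% lower, in 3 libraries). Ccnb1 differed 10.4-fold, Cdc6 8.78-fold, Tyms 8.75-fold and Mki67 5.55-fold. The other two were Cdt1 at 0.921-fold and Cenpa at 1.41-fold. Pre-B cells with Rag, compared after the levels had been seen, also had 35 of 37 members higher than Ms4a1 B cells (9.73% of 11412 genes higher, 6.84% lower, in 6 libraries), with the same exceptions, Cdt1 at 0.943-fold and Cenpa at 1.86-fold. The Ms4a1 B cells are shared by these 2 comparisons. Rrm2 had 183 CPM in pre-B and 16.5 CPM in Ms4a1 B cells, and the library ranges, 149.8 to 209.8 and 9.62 to 30.2 CPM, did not overlap. The ratio of S-phase to mitotic UMIs was 0.277 in cells with the surrogate light chain (0.231 to 0.325 in 3 libraries) and 0.168 in pre-B cells (0.148 to 0.186 in 6).

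Of the 4 markers of the pre-B gate, Rag1 and Il2ra were lower in positive than in negative cells by over 2-fold, and Rag2 and Chchd10 were not. Rag1, of the recombinase that cuts the antigen receptor genes, had 61.3 against 355 CPM in positive and negative cells, and Il2ra, the IL-2 receptor alpha chain, 55.8 against 275 CPM, both lower in 4 of 4 libraries. Rag2, the other part of that recombinase, had 40.6 against 44.7 CPM, lower in 3 of 4 libraries, and Chchd10 1115 against 1158 CPM, lower in 2 of 4. The surrogate light chain genes Vpreb1 and Igll1 had 205 against 68.0 CPM and 141 against 40.6 CPM, higher in 4 of 4 libraries. In the surrogate light chain gate the direction of these last genes was the opposite, with 1421 against 3167 CPM of Vpreb1 and 888 against 1783 CPM of Igll1 in positive and negative cells. Rag1 had 105 against 446 CPM and Rag2 39.9 against 88.9 CPM there, and 1 library held 50 cells of both kinds. Vpreb1 and Igll1 are themselves markers of the surrogate light chain gate. Each B lineage cell went to the stage whose markers scored highest. The levels of these markers within a gate, and their directions, therefore depend on the gating.

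In the mononuclear phagocytes, classical monocytes had 35 of 37 members higher than macrophages in a comparison added after the levels had been seen (94.6%, where 8.52% of 13740 genes were higher and 11.6% lower, in 6 libraries). Ccna2, cyclin A2, differed 54.9-fold, Ube2c 46.2-fold and Rrm2 42.1-fold. The exceptions were Pcna at 1.57-fold and Cdt1 at 1.67-fold. Positive cells of the classical monocyte gate had more Mpo (159.8 against 11.9 CPM) and Elane (319 against 11.9 CPM), genes of the granules of early myeloid cells, and less Ccr2, the chemokine receptor of blood monocytes (575 against 818 CPM), and less C1qa (20.8 against 153 CPM), in 6 of 6 libraries each. Of the 5 markers of the gate, Ly6c2 (2448 against 1718 CPM) and F13a1 (1267 against 886 CPM) were higher in positive cells and Ccr2, Ms4a4c (308 against 676 CPM) and Vcan (308 against 681 CPM) lower, in 6 of 6 libraries. The share of this gate therefore counts cells with Mpo and Elane UMIs among the positive ones.

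Inflammatory and resident macrophages had little of either list. Of 37 members, 20 had the 50 UMIs needed, 3 were higher in inflammatory macrophages (Birc5, Cenpa and Cdca8, where 8.28% of 10256 genes were) and 1 was lower (Mki67, where 14.5% were), in 2 libraries. Mki67 had 31.4 CPM in resident and 8.91 CPM in inflammatory macrophages, while Top2a had 4.46 and 9.93 CPM and Rrm2 0.743 and 3.31 CPM. UMIs of Mki67 were found in 14.6% of resident and 7.10% of inflammatory macrophages, at medians of 12330 and 19984 UMIs, and in 2.00% of late neutrophils, the background gate, at a median of 5352. Pcna, which also serves DNA repair, had 81.8 CPM in resident macrophages, 61.8 CPM in macrophages and 106 CPM in mast cells.

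**Figure D5:**
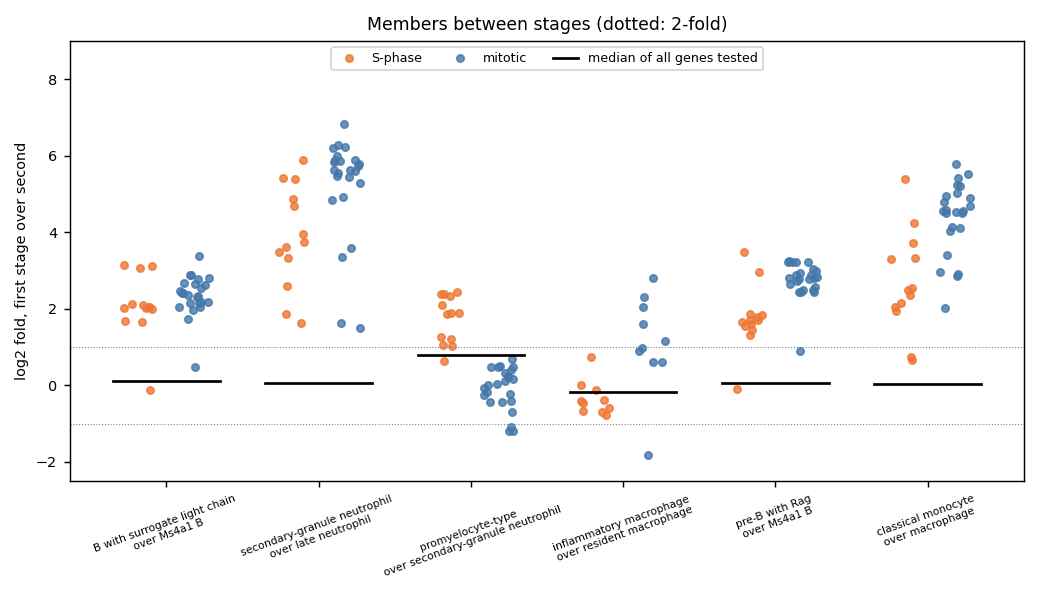
Log2 fold of each member with at least 50 UMIs between 2 stages of a lineage (points, S-phase list orange, mitotic list blue), with the median of all genes tested (black bars) and the 2-fold lines (dotted). In the promyelocyte-type column the S-phase genes sit around 1.89 and the mitotic genes around 0.02, on either side of the bar at 0.79, and in the secondary-granule column mitotic genes sit around 5.62.

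Genes of licensing and DNA synthesis are given by library for the neutrophil stages, between which 12 of the 13 had been called higher. In the lowest, median and highest of 6 libraries, Mcm2, a helicase subunit, had 14.9, 17.6 and 24.05 CPM in secondary-granule neutrophils and 0.570, 1.25 and 3.51 CPM in late neutrophils. Rrm1, the large subunit of ribonucleotide reductase, had 48.9, 55.6 and 68.9 CPM and 4.73, 5.82 and 13.2 CPM. Cdc6, which loads the helicase, had 6.06, 11.4 and 15.1 CPM and 0.733, 1.21 and 1.80 CPM. In these 3 genes every secondary-granule library was above every late neutrophil library. The fold call had already needed the same direction in every library, so this is no separate result. Cdt1, the partner of Cdc6, had 6.52, 12.7 and 14.9 CPM and 1.38, 4.99 and 12.1 CPM, ranges that overlap. The share of all genes whose libraries lie apart in this way was not counted.

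Among cyclins and kinases, Cdk1 had 93.1, 104 and 129 CPM over the pre-B libraries and 5.57, 12.8 and 29.3 CPM over those of Ms4a1 B cells. Ccnb2, cyclin B2, had 116, 138 and 172 CPM and 7.55, 17.0 and 36.1 CPM. Plk1, the kinase that drives entry into mitosis and its exit, had 18.6, 23.9 and 35.8 CPM and 1.04, 3.06 and 12.6 CPM. Aurka, the kinase of the spindle poles, had 25.1, 29.4 and 38.9 CPM and 0.507, 3.99 and 9.22 CPM. In each of these genes every pre-B library was above every Ms4a1 B library. Ccna2 and Ccnb1, of the same role, are not shown by library. The fold call had already needed the same direction in every library, so this is no separate result. The share of all genes whose libraries lie apart in this way was not counted.

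Some kinetochore, checkpoint and spindle genes are given by library for the mononuclear phagocytes. Cenpe, the motor of the kinetochore, had 13.1, 48.3 and 63.4 CPM over the classical monocyte libraries and 1.44, 2.63 and 5.56 CPM over those of macrophages. Bub1b, of the spindle checkpoint, had 13.4, 28.3 and 37.8 CPM and 2.91, 4.01 and 5.39 CPM. Kif11, the motor that pushes the spindle poles apart, had 12.9, 53.9 and 73.8 CPM and 0.661, 2.02 and 2.82 CPM. Tpx2, which nucleates spindle microtubules, had 16.1, 44.6 and 60.3 CPM and 1.32, 2.94 and 4.29 CPM. Kif20a, a motor of the dividing cell's midzone, had 3.88, 11.3 and 15.7 CPM and 0.264, 0.574 and 2.02 CPM. In each of these genes every monocyte library was above every macrophage library. Cenpa, Cenpf, Spc24, Bub1 and Nusap1, of the same roles, are not shown by library. The fold call had already needed the same direction in every library, so this is no separate result. The share of all genes whose libraries lie apart in this way was not counted.

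The D cyclins, which with CDK4 and CDK6 open the way into S phase, differed in level between lineages. Ccnd1, Ccnd2, Ccnd3, Cdk4 and Cdk6 all had UMIs in every gate, and the lowest level of Ccnd3 was 42.3 CPM in migratory dendritic cells. Ccnd3 was high in early B lineage cells, with 792 CPM in cells with the surrogate light chain and 660.5 CPM in pre-B cells. Ms4a1 B cells had 332 CPM of Ccnd3. Ccnd2 was higher in Ms4a1 B cells, with 276 against 37.2 CPM in pre-B cells. T and NK cells had 379 and 347 CPM of Ccnd2 and 286 and 340 CPM of Ccnd3. Plasmacytoid and type 1 dendritic cells had 294 and 217 CPM of Ccnd1. Promyelocyte-type cells had 537 CPM of Cdk6, 195 CPM of Cdk4 and 85.1 CPM of Ccnd2, and secondary-granule neutrophils 31.8, 13.5 and 3.504 CPM, folds of 16.9, 14.5 and 24.3. These 3 of the 5 genes were called higher, where 43.0% of all genes were, and Ccnd1 and Ccnd3 were not. Ccnd3 had 130 CPM in promyelocyte-type cells and 258 CPM in secondary-granule neutrophils. 

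Of the 9 inhibitors listed, Cdkn2d, the p19 inhibitor of CDK4 and CDK6, had 44.5 CPM in promyelocyte-type, 144 CPM in secondary-granule and 133 CPM in late neutrophils, and was the 1 inhibitor of 7 tested that was called lower in promyelocyte-type than in secondary-granule cells, where 11.6% of all genes were. Cdkn1a, p21, had 96.1 CPM in secondary-granule and 201 CPM in late neutrophils. In that comparison Cdkn2c, p18, was 11.0-fold higher in secondary-granule neutrophils, in the same direction as the members. Among genes outside the members, 17 of 19 other S-phase genes and 22 of 23 other mitotic genes were higher in secondary-granule than in late neutrophils, where 15.9% of all genes were. In promyelocyte-type over secondary-granule cells the counts were 15 of 19 and 1 of 23, where 43.0% of all genes were higher. In B lineage cells with the surrogate light chain compared with Ms4a1 B cells the counts were 19 of 19 and 22 of 23, where 15.9% of all genes were higher.

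Over the 70 points of a gate in a library with at least 50 cells, the genes most like the mitotic sum by Pearson r of log2(CPM + 1) were Neil3, Hmmr, Ska1, Esco2, Cdkn3, Sgol2a, Spc25 and Shcbp1 (r = 0.93 to 0.95, of 11993 genes). Those most like the S-phase sum were Dnmt1, Tipin, Lig1, Orc6, Rfc4, Gmnn, Rpa3 and Smc1a (r = 0.96 to 0.98). Hmmr, Cdkn3 and Lig1 are among the lists of other cell cycle genes. Members followed their own sum with a median r of 0.92 in the mitotic list, lowest for Cenpa (0.78), and of 0.95 in the S-phase list, lowest for Cdt1 (0.73), and a member is part of the sum it is set against. The 2 sums had r = 0.76, and 0.91 without Hmgb2. Points share libraries and differ in depth, so these values are descriptions.

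The libraries differed in the share of positive cells. In order of their numbers it was 10.3%, 19.7%, 10.3%, 12.9%, 24.01% and 24.4%. Libraries 5 and 6 were highest, library 2 lay between, and 1, 3 and 4 were lowest. Granulocyte gates took 20.1%, 29.3%, 12.7%, 33.9%, 49.7% and 49.0% of their cells. With each library set to the pooled make-up of gates, the share was 14.6%, 20.1%, 14.3%, 16.3%, 21.9% and 22.3%, a narrower range with libraries 5 and 6 still highest.

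Within the 7 gates that had 50 cells in every library, the order depended on the gate. Classical monocytes had 12.7%, 38.8%, 18.6%, 29.9%, 46.3% and 47.5% in libraries 1 to 6, with intervals of 10.2% to 15.7% in library 1 and 44.7% to 50.3% in library 6. Secondary-granule neutrophils had 35.3%, 36.7%, 28.4%, 26.9%, 33.2% and 35.5%, and the intervals of all but library 4 overlapped with that of library 2. Pre-B cells had 23.1%, 25.3%, 18.4%, 25.4%, 32.8% and 27.9%, highest in library 5. T cells had 22.6%, 11.6%, 17.4%, 22.3%, 26.1% and 8.77%, and library 6, high in monocytes, was lowest here with an interval of 5.39% to 13.97%. Ms4a1 B cells had 4.26%, 7.66%, 7.38%, 9.50%, 12.9% and 6.25%, macrophages 1.28%, 3.53%, 1.88%, 2.45%, 1.26% and 4.57% and late neutrophils 0.901%, 1.68%, 0.412%, 0.127%, 0.532% and 0.724%. The treatment behind each number is unknown, so these spreads cannot be told apart from an effect of treatment.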

How the data were processed

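CD45+ cells of digested joints were captured with 10x Genomics 3′ chemistry. Per the labels and the study's methods, the authors counted UMIs with Cell Ranger 7 on the mouse build mm10, removed ambient RNA and doublets, and filtered cells on genes and mitochondrial share. The deposited counts are whole UMI counts per gene and cell after these steps, with no scaling for depth. No further doublet caller was run. In 6 libraries, 32953 cells had a median of 11376 UMIs. Library numbers could not be tied to samples, so no test was made, and all intervals cover counting error only. Each marker was scaled to the 95th percentile of its positive cells and averaged per list, and a gate needed a score of 0.1, 3 markers and a lead of 1.2 over the next lineage. The gate rule was set after the files had been seen. Members and lists were chosen with earlier results of these data known, and 2 comparisons (pre-B over Ms4a1 B, classical monocyte over macrophage) were added after the levels had been seen. Named genes were the 37 members, the fixed pathway lists and the 8 genes most like each sum. Alternatives changed the genes needed, the depth, the gate, the filter and fold, and the libraries. The fold step was tested on simulated data. Promoters came from RefSeq (GRCm38.p6), and no window was used for Spc24, Ccna2, Aurkb, Tpx2, Kif20a and Mcm4. Tools were Python 3.11.15, numpy 2.4.6, scipy 1.17.1, pandas 2.3.3 and scanpy 1.11.5.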

Additional observations from a re-analysis of the deposited data

How the results depend on the processing

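The share of positive cells moved with the call rule. With 2, or with 5, genes needed in place of 3 it was 32.7% and 14.1% over all cells, 41.1% and 27.8% in secondary-granule neutrophils, 52.2% and 28.2% in classical monocytes, 44.5% and 23.2% in pre-B cells, and 10.2% and 0.191% in late neutrophils. Thinned to 1500 UMIs, to 6000 UMIs, or not at all, it was 14.8%, 29.9% and 35.7% over all cells, 29.7%, 36.9% and 43.2% in secondary-granule neutrophils, 29.99%, 45.2% and 64.8% in classical monocytes, 23.25%, 57.1% and 32.3% in pre-B cells, and 0.274%, 2.22% and 3.99% in late neutrophils. The deeper limit leaves out cells below 6000 UMIs, and the median pre-B cell had 5531. With a lead of 2 for the gate it was 39.2% in classical monocytes, 24.6% in pre-B cells and 0.529% in late neutrophils, and with clusters built without cell cycle genes 26.7% in classical monocytes, 31.9% in secondary-granule neutrophils and 1.43% in late neutrophils. The median over libraries was 16.3% for all cells and 34.3% for classical monocytes. Leaving out each library gave 17.6% to 20.4% over all cells, 33.8% to 40.9% in classical monocytes, 25.0% to 27.9% in pre-B cells and a ratio of S-phase to mitotic UMIs of 0.200 to 0.218. That ratio was 0.476 without Hmgb2 and 0.179 without Pcna. At 4-fold, 5 of 37 members (13.5%) were higher in promyelocyte-type than in secondary-granule cells, all of them among the 13 S-phase genes (38.5%). Of all 12457 genes 2480 were higher, a larger share than that of the members and a smaller one than that of the S-phase genes. For inflammatory over resident macrophages at 2-fold, 6 of 34 members (17.6%) were higher with 10 UMIs needed, beside 1133 of 13066 genes. With 200 UMIs needed it was 1 of 8 members (12.5%), beside 611 of 7473 genes. Of 18 counts of members under alternatives, 15 stayed within 1.5 times of the reported one. Most other values moved, but shares were held to a narrower rule than these counts, so a small shift could count as moved. In classical monocytes, reported at 37.6%, a share of 39.2% was counted as moved and one of 38.5% as the same. Of all 266 values under alternatives, 166 were counted as moved and 100 as the same. Among them 67 of 124 shares, 29 of 40 ratios of S-phase to mitotic UMIs, 28 of 39 S-phase levels and 34 of 39 mitotic levels moved. The causes of these moves were not tested. No paired analysis was possible because the libraries could not be tied to samples and no test was made.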
